A study of Homo sapiens with 4 samples.

Results

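The grainyhead-like (GRHL), OVO-like (OVOL), epithelial splicing (ESRP) and zinc finger E-box-binding (ZEB) genes were followed in human cells at an early ectodermal stage with and without a knockout label for the transcription factor gene TFAP2A. The 9 genes were chosen by symbol, and each matched 1 row of the 25690 in the table: GRHL1, GRHL2, GRHL3, OVOL1, OVOL2, ESRP1, ESRP2, ZEB1 and ZEB2. Every one of the 9 also passed the low-count filter that left 15643 genes to test. Gene levels came from polyA-selected RNA sequencing of the human embryonic stem cell line H9 at day 7, in a state that the series calls non-neural ectoderm. There were 2 wild-type (WT) libraries and 2 whose genotype label reads TFAP2A knockout. Line and day were the same in all 4, and the labels used here name no clone, guide or culture medium. No label states separate cultures for libraries with the same genotype, and the p-values below therefore reflect library-to-library spread that may be technical.

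Grainyhead factors are DNA-binding proteins that open and activate genes for cell junctions and surface barriers in epithelia. OVOL zinc finger factors repress mesenchymal genes, ZEB1 and ZEB2 among them, while ZEB factors repress junction genes such as CDH1 and are themselves known to be restrained by GRHL2 and OVOL factors. ESRP proteins are RNA-binding factors that set epithelial splice forms. In the surface ectoderm and epidermis these genes are known for keeping cells epithelial, and ZEB factors for the opposite state, epithelial-mesenchymal transition (EMT).

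Library totals ranged from 17838204 to 21797850.5 counts, with 3 counts corresponding to 0.137 to 0.17 CPM, the unit used for levels here (counts scaled by the normalised library total). The titles of the libraries labelled knockout name TFAP2C, while their genotype label names TFAP2A and their count columns carry the tag 2AKO. TFAP2A was at 171 and 197 CPM in WT against 133 and 120.5 CPM in the libraries labelled knockout, and TFAP2C was at 27.5 and 30.5 against 8.88 and 5.77 CPM. Both were lower, TFAP2C by more (log2 fold change -1.99, against -0.54 for TFAP2A). A count over a whole gene cannot show a deleted exon, so these values do not settle which name is right. Directions below are those of the libraries labelled knockout. Surface ectoderm markers were present in all libraries. KRT8 was at 1313 ± 29.1 CPM in WT (SD, n = 2), against 1049 and 1061 CPM under the knockout label. TP63 was at 22.8 ± 1.17 CPM in WT, against 23.4 and 13.5 CPM. Of 12 such markers, 8 (66.7%) were lower under the knockout label by the test given below, against 22.3% of all genes tested. Markers of other cell types were also high in WT, with the mesenchyme marker COL3A1 at 6407 CPM and the amnion marker GABRP at 1166 CPM. The share of each cell type was not measured.

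Of the 9 genes, 5 were lower in the libraries labelled knockout, 0 were higher and 4 did not pass (edgeR's quasi-likelihood test, Benjamini-Hochberg adjusted p under 0.05). GRHL1 and ZEB1, which are known for opposite roles, showed the largest differences and both fell. GRHL2, OVOL2 and ESRP2 fell by less. GRHL3, OVOL1, ESRP1 and ZEB2 did not pass. Over all genes tested 44.2% passed, 22.3% lower and 21.9% higher, and the share of the 9 that passed, 55.6%, is to be read against that. The median log2 fold change of the 9 genes was -0.36, against 0.00193 over all genes tested.

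**Figure D1:**
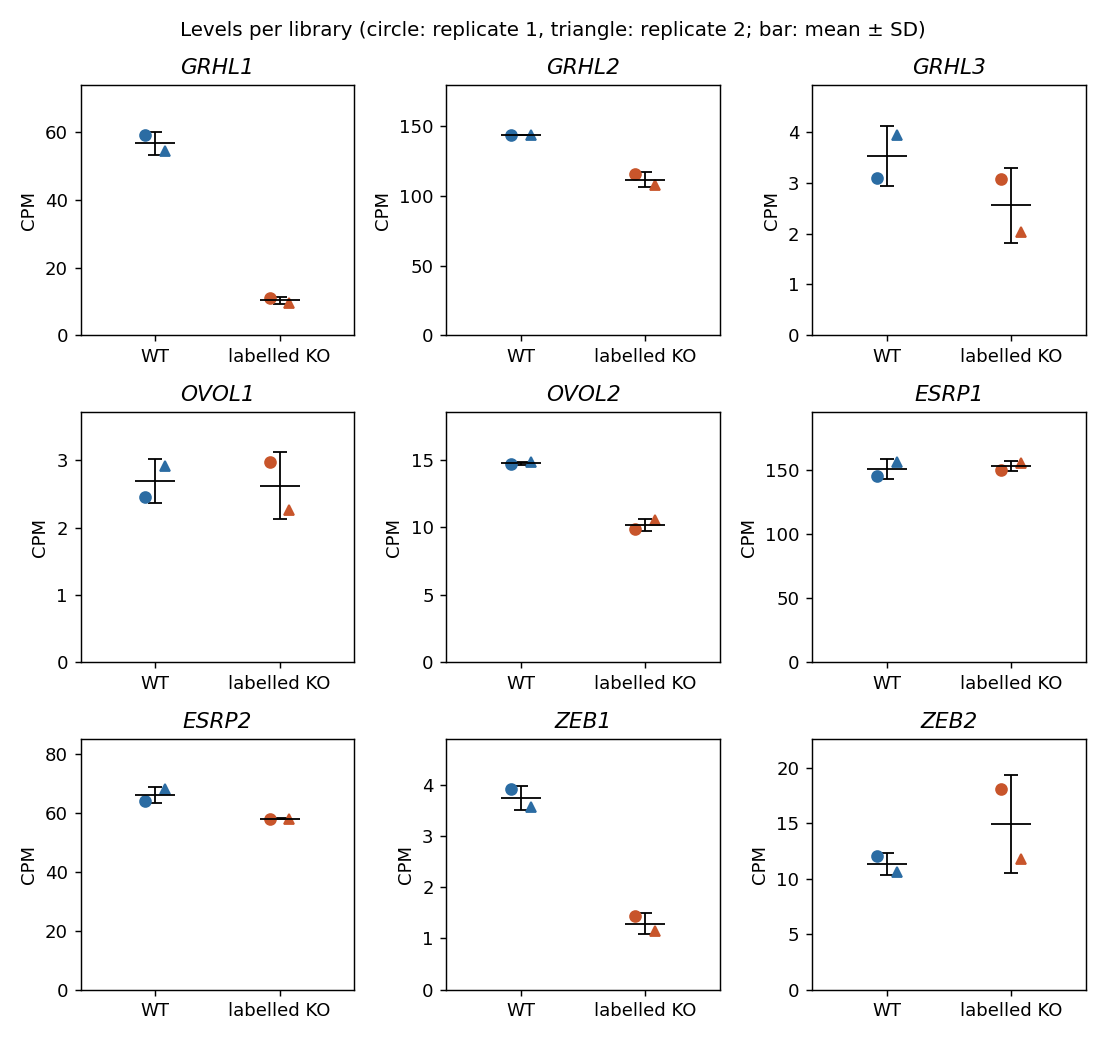
Level of each gene (CPM, linear axis from 0) in the WT libraries and those labelled knockout (KO); points are libraries, bars are mean ± SD (n = 2). GRHL1 and ZEB1 separate the genotypes widely, while the points of OVOL1, ESRP1 and ZEB2 overlap between genotypes.

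GRHL1 is the grainyhead factor best known for desmosomal cadherin expression and epidermal barrier formation. It lies on chromosome 2 (10091792 to 10142412, plus strand, hg19). Its level was 59.1 and 54.3 CPM in the WT libraries and 11.1 and 9.48 CPM in the libraries labelled knockout. Both libraries of the second genotype were far below both of the first. The difference was 5.52-fold, or -2.47 on the log2 scale (SE 0.09, adjusted p = 7.29e-11, edgeR), and 2.74% of all genes tested had a change at least as large.

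GRHL2, a broad activator of epithelial junction genes, lies on chromosome 8 (102504668 to 102681952, plus strand, hg19). It was at 143 CPM in both WT libraries and at 115 and 108 CPM in the libraries labelled knockout, with no overlap. The log2 fold change was -0.36 (SE 0.06, adjusted p = 0.000102, edgeR), and 36.3% of all genes tested changed by at least as much. The 95% interval of GRHL2, from -0.48 to -0.24 on the log2 scale, lay above that of GRHL1, from -2.67 to -2.26.

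GRHL3, known for neural tube closure and wound repair, lies on chromosome 1 (24649530 to 24681808, plus strand, hg19). It was at 3.10 and 3.94 CPM in WT and at 3.07 and 2.04 CPM in the libraries labelled knockout, from counts of 44.5 to 69.5 per library. The higher of the latter was just under the lower WT value. GRHL3 did not pass (log2 fold change -0.49, SE 0.25, 95% interval -1.02 to 0.04, adjusted p = 0.125, edgeR). Without knockout replicate 1 its adjusted p was 0.0405, and over the 11 alternatives it ranged from 0.0405 to 0.576.

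The share of GRHL1 in its family did not overlap between genotypes. Per kilobase of the longest coding transcript, GRHL1 made up 36.8% and 34.65% of the summed GRHL level in WT, against 11.9% and 11.1% under the knockout label. GRHL2 was 1.65 and 1.80 times the level of GRHL1 in WT, against 7.07 and 7.71 times under the knockout label. With 2 libraries against 2, the exact two-sided permutation test of such a share cannot go below p = 0.333, the value it gave here and for the other 3 families (Benjamini-Hochberg adjusted over 4 comparisons, 0.333). In bulk RNA, fewer cells that express a gene and less of its RNA per cell cannot be told apart.

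The bases before the RefSeq start of GRHL1 (GRCh38.p14, chr2:9951443-9951692, plus strand) are shown because this gene had the largest difference, beside those of a GRHL3 start (chr1:24319107-24319356, plus strand), the family member that did not pass. Each is 250 bases long and ends just before the start, and capitals mark a motif that a search on both strands found.

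GRHL1: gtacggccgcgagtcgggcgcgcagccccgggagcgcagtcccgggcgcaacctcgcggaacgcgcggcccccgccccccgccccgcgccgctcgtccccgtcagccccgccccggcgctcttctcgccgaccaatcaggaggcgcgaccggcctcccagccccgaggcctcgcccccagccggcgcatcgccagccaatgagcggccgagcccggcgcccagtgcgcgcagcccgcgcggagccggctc

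GRHL3: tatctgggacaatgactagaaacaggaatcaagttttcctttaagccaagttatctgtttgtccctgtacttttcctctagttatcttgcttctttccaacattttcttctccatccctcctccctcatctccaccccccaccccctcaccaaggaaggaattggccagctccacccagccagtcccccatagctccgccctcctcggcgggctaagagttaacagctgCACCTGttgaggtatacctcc

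The search used AACCGGTT (grainyhead), CAGGTG (the E-box that ZEB factors bind), GCCNNNGGC (AP-2, the family of TFAP2A) and CCGTTA (OVOL). GRHL1 held none of the 4 in this window, whose G and C share was 81.6% against a median of 58% over 35116 windows. The capitals in GRHL3 are 1 CAGGTG match, read on the other strand, which begins 21 bases before the start. A second GRHL3 window, at chr1:24322790-24323039, held 1 GCCNNNGGC match and no other. Of all windows, 0.117% held AACCGGTT, 17.5% CAGGTG, 19.8% GCCNNNGGC and 2.45% CCGTTA, so the matches found in GRHL3 are of common motifs. A match describes letters in this window and no binding was measured.

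OVOL1, a repressor that acts in epidermal differentiation, lies on chromosome 11 (65554505 to 65564690, plus strand, hg19). It was at 2.46 and 2.92 CPM in WT and at 2.97 and 2.27 CPM in the libraries labelled knockout, and the genotypes overlapped. It did not pass (log2 fold change -0.05, 95% interval -0.55 to 0.46, adjusted p = 0.894, edgeR), so that differences from 0.681-fold to 1.38-fold lay inside its interval.

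OVOL2, which represses ZEB1 and other EMT genes, lies on chromosome 20 (18004796 to 18038521, minus strand, hg19). It was at 14.7 and 14.8 CPM in WT and at 9.85 and 10.5 CPM in the libraries labelled knockout. The libraries of each genotype lay close together and the genotypes did not overlap. OVOL2 fell by 0.53 on the log2 scale (SE 0.12, adjusted p = 0.00245, edgeR), 1.45-fold. OVOL2 made up 90.8% to 92.1% of the summed OVOL1 and OVOL2 level per kilobase in WT and 86.6% to 90.05% in the libraries labelled knockout.

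ESRP1, the more abundant of the epithelial splicing factors here, lies on chromosome 8 (95653364 to 95719694, plus strand, hg19). It was at 146 and 156 CPM in WT and at 150.2 and 156 CPM in the libraries labelled knockout, and the genotypes overlapped. Its log2 fold change was 0.02 (SE 0.05, adjusted p = 0.794, edgeR). The 95% interval ran from 0.934-fold to 1.10-fold, the narrowest among the 4 genes that did not pass.

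ESRP2, the second splicing factor of the family, lies on chromosome 16 (68262450 to 68270136, minus strand, hg19). It was at 64.0 and 67.9 CPM in WT and at 57.8 and 58.0 CPM in the libraries labelled knockout, with no overlap. ESRP2 fell by 0.19 on the log2 scale (SE 0.07, adjusted p = 0.0304, edgeR), and 59.1% of all genes tested changed by at least as much. The call was lost with DESeq2 (adjusted p = 0.16) and without WT replicate 2 (0.195), knockout replicate 1 (0.096) or knockout replicate 2 (0.0849), in a range of 0.0269 to 0.195 over 11 alternatives. ESRP2 made up 30.6% and 30.4% of the summed ESRP level per kilobase in WT, against 27.85% and 27.2% under the knockout label. NFATC3, on the opposite strand, overlaps 713 bp (9.28%) of the span of ESRP2 in the table and was higher in the libraries labelled knockout (115 and 117 CPM against 100.3 and 104 CPM in WT, adjusted p = 0.0174, edgeR). No source used here says if strand entered the counting, and reads in that overlap cannot be assigned.

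ZEB1, a repressor of epithelial junction genes, lies on chromosome 10 (31608101 to 31818742, plus strand, hg19). It was at 3.91 and 3.57 CPM in WT and at 1.43 and 1.15 CPM in the libraries labelled knockout, from 70 and 63 against 28 and 25 counts. The genotypes were well separated although the level was low throughout. The difference was 2.91-fold, or -1.54 on the log2 scale (SE 0.25, adjusted p = 0.000147, edgeR), and 6.35% of all genes tested changed by at least as much.

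ZEB2, its paralogue, lies on chromosome 2 (145141942 to 145277958, minus strand, hg19). It was at 12.0 and 10.6 CPM in WT and at 18.1 and 11.8 CPM in the libraries labelled knockout. Knockout replicate 1 was above the rest, while knockout replicate 2 lay between the WT values. ZEB2 did not pass (log2 fold change 0.40, SE 0.19, 95% interval -0.05 to 0.84, adjusted p = 0.136, edgeR). Without knockout replicate 2 the log2 fold change was 0.68 with an adjusted p of 0.00343, and over 11 alternatives the adjusted p ranged from 0.00343 to 0.772. ZEB1 made up 33.2% and 34.0% of the summed ZEB level per kilobase in WT, against 10.8% and 12.9% under the knockout label.

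The table's RefSeq starts gave 7 windows for ZEB1 and 1 for ZEB2. The ZEB1 window shown (GRCh38.p14, chr10:31318966-31319215, plus strand) was picked from these for having the most CAGGTG matches. They are in capitals, at 242 and 85 bases before the start.

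ZEB1: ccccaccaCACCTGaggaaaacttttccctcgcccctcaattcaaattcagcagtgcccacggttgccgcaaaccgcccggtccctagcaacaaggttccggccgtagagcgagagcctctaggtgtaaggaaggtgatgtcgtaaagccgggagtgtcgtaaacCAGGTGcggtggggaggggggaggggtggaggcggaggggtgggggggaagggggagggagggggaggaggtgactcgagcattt

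Another ZEB1 window, at chr10:31318167-31318416, held 1 CAGGTG match, and one at chr10:31319518-31319767 held 1 CCGTTA match, the OVOL motif. No further ZEB1 window held CAGGTG, a motif present in 17.5% of all windows searched. The ZEB2 window (chr2:144520120-144520369, minus strand) held none of the 4 motifs. In all, 4 of the 9 genes had a window in the sequences searched here (GRHL1, GRHL3, ZEB1 and ZEB2). Any window on chromosome 8, where GRHL2 and ESRP1 lie, was left out for the 9 genes but not for the shares over all windows.

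**Figure D2:**
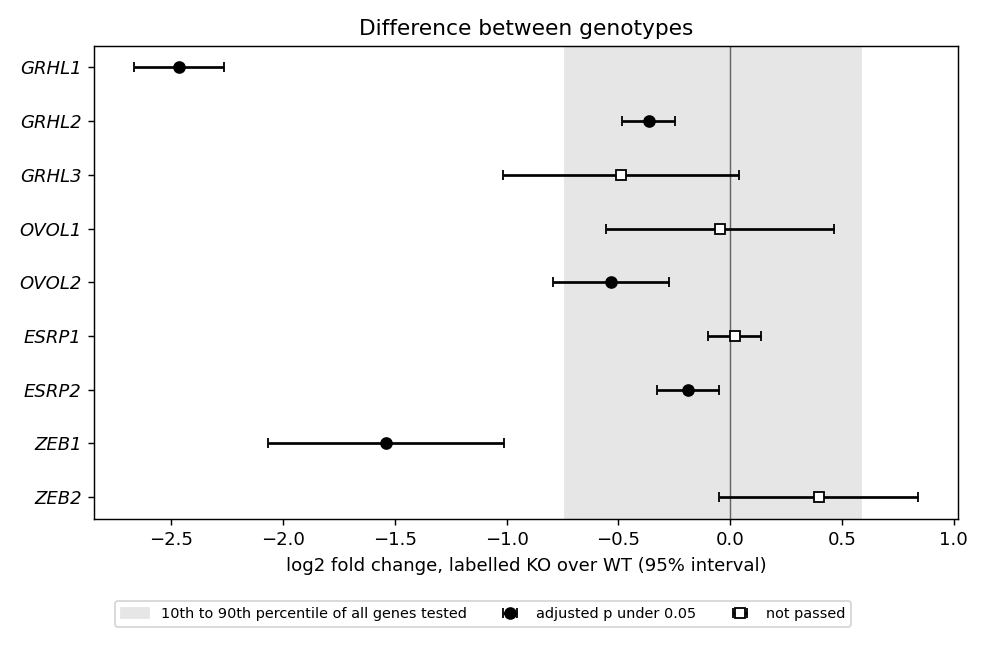
Log2 fold change of each gene (labelled KO over WT) with its 95% interval; filled circles passed an adjusted p of 0.05, open squares did not, and the grey band spans the 10th to 90th percentile of all 15643 genes tested (-0.74 to 0.59). The point estimates of GRHL1 and ZEB1 lie outside the band and the other 7 inside it.

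Compared per kilobase of the longest coding transcript, the order of levels in WT ran from ESRP1 (39.6 ± 1.97 CPM per kb) through GRHL2 (27.4 ± 0.00081), ESRP2 (17.4 ± 0.733), GRHL1 (15.9 ± 0.954) and OVOL2 (9.48 ± 0.068) to GRHL3 (1.23 ± 0.206), ZEB2 (1.18 ± 0.105), OVOL1 (0.886 ± 0.107) and ZEB1 (0.597 ± 0.0385; SD, n = 2 throughout). The neighbours ESRP2 and GRHL1 did not differ beyond their summed SDs, nor did GRHL3 and ZEB2. In the libraries labelled knockout GRHL1 dropped below OVOL2, to 2.89 ± 0.323 against 6.55 ± 0.30 CPM per kb. ZEB2 (1.56 ± 0.463), GRHL3 (0.89 ± 0.255) and OVOL1 (0.863 ± 0.163) followed. The steps from ZEB2 to GRHL3 and from GRHL3 to OVOL1 lay within the summed SDs, and GRHL3 and OVOL1 changed places when the merged length of all coding exons was used. ZEB1 remained the lowest of the 9 at 0.206 ± 0.0325 CPM per kb.

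**Figure D3:**
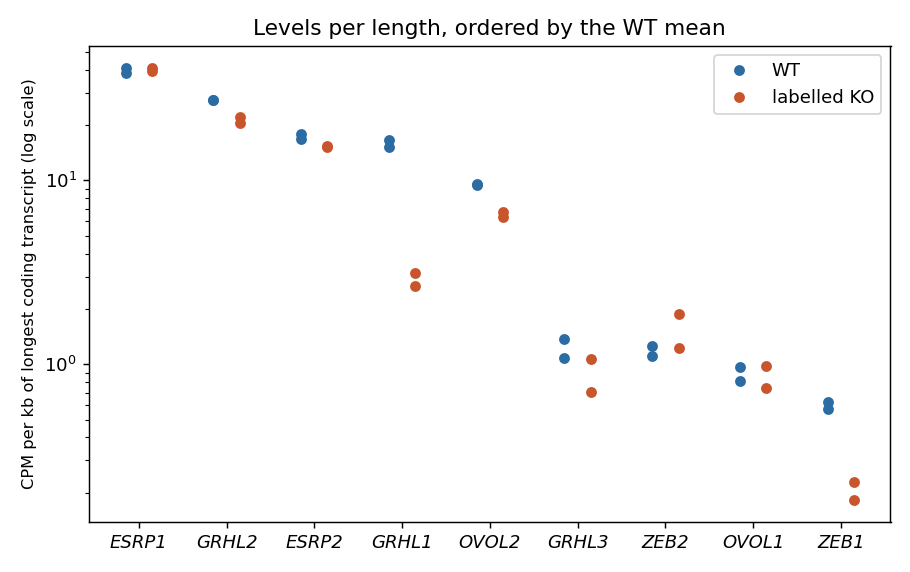
Levels per kilobase of the longest coding transcript (CPM per kb, log axis) for each library, genes ordered by the WT mean. The epithelial factors ESRP1, GRHL2 and ESRP2 stay at the top in both genotypes, and ZEB1 is lowest in both.

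The summed level per kilobase of the 5 GRHL and ESRP genes was 53.3 and 61.4 times that of the 2 ZEB genes in WT, against 38.3 and 56.7 times under the knockout label. These ranges overlapped. For ESRP1 over ZEB1 alone the ratio was 61.3 and 72.0 in WT, against 173 and 224 under the knockout label, without overlap. ESRP1 did not pass (log2 fold change 0.02), so this ratio restates the fall of ZEB1. Another pair can move the other way, since GRHL1 fell by more than ZEB1 (log2 fold change -2.47 against -1.54).

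Of 4 related genes outside the 9, 1 fell (25%, near the 22.3% of all genes) and 3 did not pass. TFCP2 and UBP1, of the same wider family as grainyhead factors, did not pass (49.0 against 44.8 and 120.3 against 130 CPM in WT). TFCP2L1, a factor of naive pluripotency and kidney epithelium, fell from 1.86 ± 0.0612 to 0.357 ± 0.143 CPM (SD, n = 2, adjusted p = 0.000203, edgeR). OVOL3 did not pass at 1 and 11.5 counts in WT against 18.5 and 19 counts, and had an adjusted p of 0.00544 without WT replicate 2 (range over alternatives 0.00544 to 0.606). For the 4 relatives the median log2 fold change was 0.0091.

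Epithelial genes that have been reported as grainyhead targets were mostly lower. Among 8 with a test, 6 fell (75%, against 22.3% of all genes), 1 rose and the remaining 1 did not pass, with a median log2 fold change of -0.56. This list and the others were chosen with earlier results of these data known, so their shares are no independent comparison with all genes. CDH1, the epithelial cadherin gene, was at 394 and 452 CPM in WT and 247 and 219.8 CPM in the libraries labelled knockout (adjusted p = 1.39e-05, edgeR). TGM1, a cross-linking enzyme of the cornified envelope, fell by 2.95 on the log2 scale, the protease gene ST14 by 2.03 and the claudin gene CLDN4 by 0.89. SPINT1, which encodes an inhibitor of ST14, fell by 0.26, and RAB25, an epithelial trafficking gene, fell by 0.23. The call of RAB25 was lost with DESeq2 (adjusted p = 0.0857) and without WT replicate 1 (0.0973) or knockout replicate 1 (0.0648), in a range of 0.00609 to 0.0973. EPCAM did not pass (135 against 148 CPM in WT, adjusted p = 0.0635, edgeR), with 0.0398 without knockout replicate 1 in a range of 0.0398 to 0.343.

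ARHGEF19, reported as a GRHL3 target, was the member that rose, from 93.1 and 94.6 CPM to 170.5 and 170.7 CPM (log2 fold change 0.86, SE 0.05, adjusted p = 8.46e-09, edgeR). TGM5 had 0 counts in every library, so a level below the 3-count floor of 0.137 to 0.17 CPM could go unseen (counting error only), and DSG1, a desmosomal cadherin gene, had 1 to 6 counts.

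Genes reported as repressed by ZEB factors were lower as well. All 8 tested fell (100%, against 22.3% of all genes), with a median log2 fold change of -0.81. This list too was chosen with earlier results of these data known. ZEB1 fell in the same libraries, while ZEB2 did not pass (log2 fold change 0.40, adjusted p = 0.136, edgeR). Per kilobase, ZEB2 was at 2.0 and 1.9 times the level of ZEB1 in WT, against 8.2 and 6.7 times under the knockout label. Whether either factor had a part in these falls was not tested. The plakophilin gene PKP3 fell by 1.91 on the log2 scale, the tight junction gene TJP3 by 1.16, the claudin gene CLDN7 by 0.94 and CDH1 by 0.86. CDH1 stands in both lists. The polarity gene CRB3 was at 14.0 ± 0.127 against 19.4 ± 0.888 CPM in WT. LLGL2, also a polarity gene, fell by 0.28, a call lost with DESeq2 (adjusted p = 0.0778) and without WT replicate 2 (0.159) or knockout replicate 2 (0.0536), in a range of 0.00211 to 0.159.

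Mesenchymal genes used as EMT markers moved both ways. Of 10 tested, 4 rose (40%, against 21.9% of all genes), 3 fell and 3 did not pass, with a median log2 fold change of 0.16. The neural cadherin gene CDH2 rose from 110.3 and 112 CPM to 264 and 248 CPM (adjusted p = 3.26e-10, edgeR). ITGA5, a fibronectin receptor subunit, rose by 0.86 on the log2 scale, the cadherin gene CDH11 by 0.53 and the intermediate filament gene VIM by 0.42. ACTA2, a smooth muscle actin gene, fell by 0.99, the fibronectin gene FN1 by 0.38 and the matrix protease gene MMP2 by 0.24. The call of MMP2 was lost without WT replicate 1 (adjusted p = 0.0528) or knockout replicate 1 (0.0576), in a range of 0.000381 to 0.0576.

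Other transcription factors of EMT also differed in direction. Of 9 tested, 1 rose, 3 fell and 5 did not pass (44.4% called, against 44.2% of all genes; median log2 fold change -0.34). FOXC2, a forkhead factor of mesoderm and crest mesenchyme, rose from 1.87 and 1.62 CPM to 13.4 and 19.4 CPM (adjusted p = 1.78e-07, edgeR). PRRX1, a mesenchymal homeobox factor, fell from 43.6 and 37.0 CPM to 6.63 and 7.05 CPM (adjusted p = 3.15e-10, edgeR). TWIST1 fell by 0.45 and SNAI1 by 0.34 on the log2 scale, and the call of SNAI1 was lost without WT replicate 1 (adjusted p = 0.0667) or knockout replicate 1 (0.0536), in a range of 0.000253 to 0.0667. SNAI2, a crest and EMT factor, was at 12.3 against 10.1 CPM in WT and did not pass (adjusted p = 0.0964, edgeR). GSC had 1.5 to 5.5 counts and was not tested.

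Genes whose exons are known to depend on ESRP proteins were examined at the level of whole genes, since counts per gene do not show splice forms. Tests gave 4 lower (44.4%, against 22.3% of all genes), 2 higher (22.2%, against 21.9%) and 3 that did not pass, with a median log2 fold change of -0.09. FGFR2, whose epithelial IIIb form is the classic ESRP target, fell from 241 and 236 CPM to 106 and 94.0 CPM (adjusted p = 6.80e-10, edgeR). The catenin gene CTNND1 fell by 0.53 on the log2 scale, NUMB by 0.44 and EXOC7 by 0.31. The actin regulator gene ENAH rose by 0.73, and MAP3K7 by 0.25 with the call lost without knockout replicate 1 (adjusted p = 0.056, range 0.00136 to 0.056). CD44 had 1 to 3.5 counts per library.

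Among 10 other splicing regulators of epithelial and mesenchymal exons, 4 rose (40%, against 21.9% of all genes), 2 fell (20%, against 22.3%) and 4 did not pass. The median log2 fold change was 0.16. RBM47, an RNA-binding protein of epithelia, fell from 162 and 174 CPM to 61.2 and 54.4 CPM (log2 fold change -1.54, SE 0.07, adjusted p = 2.55e-10, edgeR). CELF2 rose from 17.8 ± 1.30 to 45.8 ± 0.592 CPM and QKI, known for mesenchymal and neural splice forms, from 200.3 ± 9.996 to 249 ± 14.1 CPM (SD, n = 2). RBFOX1 was at 4.5 and 3.5 counts against 24.5 and 18, with its call lost in DESeq2 (adjusted p = 0.0656) and without knockout replicate 1 (0.0556; range 0.000697 to 0.0656). RBFOX2 fell by 0.15 on the log2 scale, a call that failed when WT replicate 1 (adjusted p = 0.0876), WT replicate 2 (0.105) or knockout replicate 1 (0.129) was left out, in a range of 0.0227 to 0.129. MBNL1 rose by 0.24, a call lost in 5 of 11 alternatives, which were DESeq2 (adjusted p = 0.2), the replicate block (0.0773) and leaving out WT replicate 1 (0.326), knockout replicate 1 (0.137) or knockout replicate 2 (0.0649; range 0.0207 to 0.326).

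**Figure D4:**
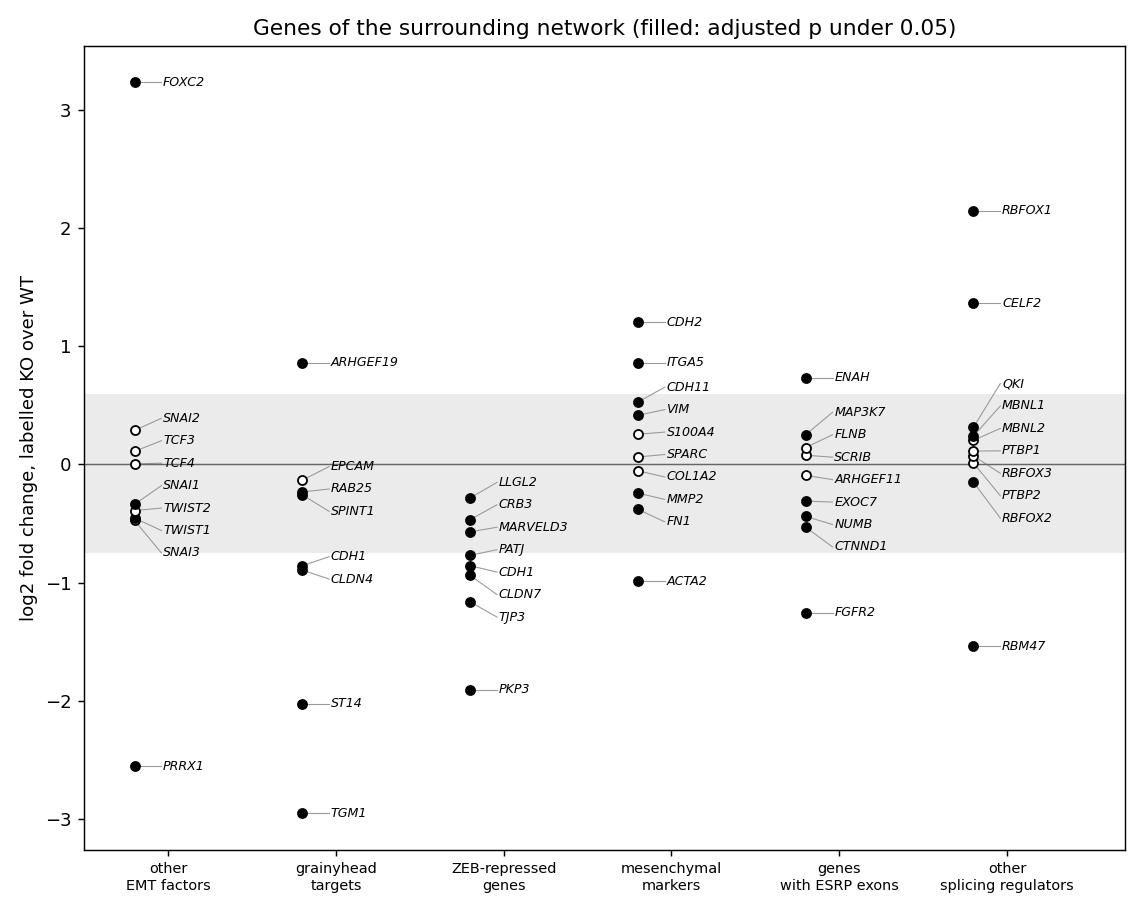
Log2 fold change (labelled KO over WT) of genes tested in 6 lists around the 9 regulators; filled points passed an adjusted p of 0.05, open points did not, and the grey band spans the 10th to 90th percentile of all genes tested. All 8 tested genes of the ZEB-repressed list lie below 0, while mesenchymal markers lie on both sides.

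MicroRNAs of the miR-200 family are known repressors of ZEB1 and ZEB2. The rows of MIR200A, MIR200B, MIR200C, MIR141 and MIR429 held 0 to 1 count per library, and polyA libraries do not measure mature microRNAs. MIR205HG, host of miR-205, was at 2.03 ± 0.139 CPM in WT and 2.13 ± 0.748 CPM in the libraries labelled knockout (SD, n = 2) and did not pass. ZEB1-AS1, transcribed away from ZEB1 and beginning 0.077 kb from it, had 42.5 and 44 counts in WT against 60.5 and 61.5 counts and did not pass (log2 fold change 0.29, adjusted p = 0.32, edgeR), while ZEB1 fell. ZEB2-AS1 and OVOL1-AS1, which overlap their partners, had 0 to 1.5 counts per library.

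Of the genes next to the 9 on their chromosomes, 36.1% passed, against 44.2% of all genes tested. Of the 36 flanking genes tested, 2 on each side of each member, 9 were higher (25%, against 21.9% of all genes), 4 were lower (11.1%, against 22.3%) and 23 did not pass, with a median log2 fold change of 0.07. TAF1B, 17.2 kb before GRHL1, was higher (25.7 against 20.7 CPM in WT, adjusted p = 0.0212) and KLF11, 41.3 kb after it, was lower (18.2 against 23.5 CPM, adjusted p = 0.0289, edgeR), each by far less than GRHL1. NCALD, 16.8 kb beyond GRHL2, fell by 0.66 on the log2 scale (adjusted p = 9.33e-07, edgeR). KIF5B and ARHGAP12, the tested genes beyond ZEB1, were higher by 0.40 and 0.27 on the log2 scale. The largest rise among the flanking genes was in LRP1B, 2253 kb before ZEB2 (log2 fold change 1.49, adjusted p = 4.31e-09, edgeR). The largest fall was in AP5B1, 6.44 kb before OVOL1 (-0.72, adjusted p = 1.18e-06, edgeR). Flanking genes were named here after their values were seen.

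Patterns over the 4 libraries were compared with those of 11959 genes whose mean reached 5 CPM, as the Euclidean distance between log2 values centred on each gene's mean. The nearest to GRHL1 were COL16A1 (distance 0.0563; 10.9 ± 0.33 to 1.64 ± 0.18 CPM) and IGFBPL1. Those nearest to ZEB1 were FREM1 and JPH3, to OVOL2 OGG1 and SNX15, to GRHL2 ZBTB47 and PCMTD2, and to ESRP1 HOXB5 and C12orf57. NDST3 and RGS16 were nearest to GRHL3, RASA2 and FGD4 to OVOL1, GGT7 and PI4KB to ESRP2, and CHIC1 and USP3-AS1 to ZEB2. Over 4 libraries such likeness is mainly a like fold change and describes no more than that.

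Markers of several cell types moved with the same contrast, to be read against the 22.3% of all genes that were lower and the 21.9% that were higher. Of 12 surface and simple ectoderm markers, 8 fell, 0 rose and 4 did not pass, with a summed level of 3451 to 3752 CPM in WT and 2465 to 2557 CPM in the libraries labelled knockout. Of 6 amnion and trophoblast markers, 5 fell and 1 rose (summed 1799 to 1921 against 142 to 189 CPM). Of 9 mesenchyme markers, 7 fell and 1 rose (10363 to 10760 against 7909 to 9233 CPM, mainly COL3A1 and COL1A1). Of 6 neural ectoderm markers tested out of 10, 5 rose and 0 fell (19.3 to 20.0 against 49.2 to 73.7 CPM, mainly SOX2). RAX and FEZF2 were at 0 counts in every library. Endothelial markers gave 2 lower of 3 tested (40.9 to 42.7 against 16.8 to 17.8 CPM, PECAM1 at 0 counts). Mesoderm and endoderm markers gave 2 lower of 3 (5.33 to 6.26 against 3.71 to 6.58 CPM, TBXT at 0 counts), and pluripotency markers 1 higher and 1 lower of 3 (551 to 602 against 375 to 449.5 CPM, mainly LIN28A). SOX2 stands in both the neural and the pluripotency list. It did not pass when every gene was kept regardless of counts (adjusted p = 0.0881), nor without WT replicate 1 (0.114) or 2 (0.248), in a range of 3.95e-08 to 0.248. The neural marker LHX2 lost its call with DESeq2 (0.169) and without WT replicate 2 (0.163) or knockout replicate 1 (0.0643), in a range of 0.01 to 0.169. LUM, the mesenchyme marker that rose, lost its call in 4 of 11 alternatives (RLE factors, 0.0509, and leaving out WT replicate 1, 0.134, knockout replicate 1, 0.0943, or knockout replicate 2, 0.249). Among those that fell, COL3A1 lost its call with DESeq2 (0.0762) and without WT replicate 2 (0.054) or knockout replicate 1 (0.0504), GABRP without WT replicate 1 (0.0879) or 2 (0.124), and GATA3 without knockout replicate 2 (0.0563). Markers that passed in an alternative alone were KRT18 without WT replicate 1 (0.000614), TP63 and EPCAM without knockout replicate 1 (0.000444 and 0.0398), COL1A1 without knockout replicate 2 (0.0227), and FOXA2 without knockout replicate 2 (0.00181) or with the replicate block (0.0328). The part of these markers in the changes of GRHL1, ZEB1 and the other regulators was not tested.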

How the data were processed

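RNA was measured in 4 H9 libraries, 2 per genotype, grouped by the genotype label. Per the labels' protocols, RNA was extracted with TRIzol and RNeasy columns and made into polyA libraries with a KAPA kit. The authors deposited estimated counts per gene, in steps of 0.5 (37% of values not whole). The submitters' processing notes name TopHat, HOMER, DESeq2 and hg38, without roles or versions; none of the 9 genes began within 2000 bp of its GRCh38 position, so table coordinates are given as hg19, a build that no header names. No source used here states the annotation or strand setting.

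Counts were rounded, filtered with filterByExpr, scaled by TMM and tested on genotype alone with edgeR 4.0.16 (robust glmQLFit, glmQLFTest; R 4.3.3), adjusted over 15643 genes at a threshold of 0.05. CPM used TMM-scaled totals, and SE was the absolute log2 fold change over the square root of F. Intervals are 95%. The common biological coefficient of variation was 0.0577. In simulated counts few genes were changed, all by more than GRHL2, OVOL2 and ESRP2 were here. The fit recovered most of them, but the share of false calls was above the threshold set. In the data 44.2% of genes tested passed, many with smaller changes, so neither share carries over. Calls near the threshold are the least secure. Lengths came from GENCODE release 29 and promoters from RefSeq (GRCh38.p14), with bases after the start left out. Intervals and floors cover counting error only where so stated.

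The alternatives were DESeq2 1.42.0, limma-voom (limma 3.58.1), 2 other scalings, no filter, rounding down, a replicate block and leaving out each library. Members and lists were chosen with earlier results of these data known. All 9 members were named, with up to 4 passing genes a direction per list, or all where 5 or fewer passed, and the 2 nearest patterns per member (log2 of CPM + 0.5). SPINT1, RAB25, CRB3, LLGL2, the flanking genes, the cell type markers and genes that did not pass are outside that rule and were named after their values were seen.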

Additional observations from a re-analysis of the deposited data

How the results depend on the processing

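All 11 alternatives kept GRHL1, GRHL2, OVOL2 and ZEB1 lower and past the threshold, with log2 fold changes of -2.58 to -2.35, -0.41 to -0.31, -0.58 to -0.48 and -1.70 to -1.38. ESRP2 was lower in 11 of 11 and passed in 7. OVOL1 and ESRP1 passed in none, and each kept its sign in 9 of 11. Leaving out 1 library at a time gave 4 to 5 members lower and 0 to 1 higher, the latter being ZEB2 without knockout replicate 2; 1 library then stands for its genotype and is assumed to vary like the other. Over all genes, 2267 were higher with DESeq2 against 3427. With the replicate block 3050 genes were higher and 3154 lower, and 5 members were lower. No label states what same-numbered libraries share beyond a number. The correlation of their deviations was -0.0351. With 2 libraries per genotype the other pairing gives the same value with its sign changed, so it cannot show a shared culture or batch. Among 1364 values of 124 named genes, 1295 kept their call, 54 lost it, 15 gained it and 0 reversed. Low counts limit GRHL3, OVOL1 and ZEB1, and RNA of single exons and splice forms was not measured.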
